A study of Mus musculus with 16 samples.

Results

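Imprinted genes are expressed mainly from the copy inherited from 1 parent, under the control of DNA methylation marks that the germ line set on 1 of the copies. Many of them set growth before and after birth: genes active on the paternal copy tend to promote growth, and genes active on the maternal copy tend to restrain it. In white fat several of them are known for roles in preadipocytes, in the enlargement of adipocytes and in insulin signalling. The 10 genes described here are Plagl1, Peg3, Mest, Peg10, Sgce, Igf2, H19, Dlk1, Cdkn1c and Grb10. They were taken by gene symbol from a table of 20101 gene rows. Of the 10, 9 had a row; H19, the maternal non-coding RNA beside Igf2, was not analysed here. A filter of at least 1 FPKM in at least 4 of 16 libraries was passed by 8 of the 10, and by 12667 genes in all. Dlk1 stayed under it.

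The data are RNA-seq of epididymal white fat, the pad beside the epididymis, from mice 21 weeks old. Mice labelled WT and mice labelled KO ate either chow holding 5% fat or, starting when 5 weeks old, a high-fat diet (HFD) holding 60% fat, which makes 4 groups of 4 mice. The genotype field of the KO mice reads knockdown of ApoA4, the gene of a plasma apolipoprotein; how it was lowered, the strain and the sex are not given there, and no allele or agent is named that all groups share. Values are FPKM, fragments scaled to transcript length and library size, so levels can be set side by side between genes; the number of fragments behind each value is unknown. Summed FPKM ranged from 413167 to 468186 per library. Apoa4 RNA was at most 0.29 FPKM in the 8 WT-labelled libraries and 1.96 to 9.63 FPKM in the 8 KO-labelled ones, higher and not lower, so the direction of every KO comparison rests on the labels alone. All 10 adipocyte markers were present, and their summed level was 17695 FPKM or more on chow but 3461 to 18762 FPKM on HFD. Genes of the epididymis were present in 3 libraries: the summed level of 10 markers was 13358 FPKM in chow KO replicate 2, and in HFD KO it was 5818 FPKM in replicate 4 and 341 FPKM in replicate 2, against at most 41.2 FPKM in the 13 others. Member calls that ended, and printed differences that moved by over 1.5 times, without these 3 libraries are given both ways. Without them HFD KO keeps only replicates 1 and 3, and chow KO only replicates 1, 3 and 4, so such values rest on few libraries.

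On the reference build GRCm38.p6, the build named in the submitters' processing notes, the members lie on 5 chromosomes. Sgce (chr6:4674350-4747204) and Peg10 (chr6:4747306-4760517) stand head to head, with 101 bases between their outermost annotated starts, and Mest (chr6:30733506-30748466) lies on the same chromosome. Chromosome 7 holds Peg3 (chr7:6703892-6730462), Igf2 (chr7:142650768-142666816) and Cdkn1c (chr7:143458339-143461059). Plagl1 (chr10:13090832-13131694), Grb10 (chr11:11930499-12037428) and Dlk1 (chr12:109452485-109463336) stand alone. Exons of Mest overlap those of Copg2 on the opposite strand, and exons of Igf2, Cdkn1c and Plagl1 overlap annotated non-coding genes there. Whether counting used strand is not given in the sources, so these neighbours may contribute to a member's value.

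The marks lie on CpG pairs, at the promoter of some imprinted genes (Mest, Peg3, Plagl1) and at control regions away from it for others (Igf2, Dlk1, Cdkn1c); methylation was not measured. RefSeq promoter windows of GRCm38.p6 matched 6 of the 10 members with 12 windows, and CpG pairs were counted in the 250 bases before each start. Upstream of the outer Grb10 start there were 40 CpG pairs, more than in 98.7% of all 32851 windows. Plagl1 had 19, the inner Mest start 14 and Peg3 8, against a median of 6.0 over all windows. The inner Grb10 start had 8 and the outer Mest start 7. Windows could hold annotated exon, as in 141 of 250 bases for Plagl1, where 7 of the 19 pairs lie in the stretch printed below. Igf2, with 4 annotated starts, ranged from 1 to 22, and the window with 22 was all annotated exon. The letters GGGGCCCC, a palindrome bound by the Plagl1 protein (both strands read alike, the only motif searched), occurred in 1 of the 12 windows, that of Peg3, and in 0.89% of all windows. They are not within the Peg3 stretch printed below, which leaves out 104 bases of annotated exon. The stretches below show 3 genes that were lower on HFD in WT-labelled mice, and Mest, the member with the highest level on HFD; they leave out annotated exons, run 5′ to 3′ on the gene's strand, and carry CpG pairs in capitals.
Plagl1, plus strand, chr10:13090582-13090690: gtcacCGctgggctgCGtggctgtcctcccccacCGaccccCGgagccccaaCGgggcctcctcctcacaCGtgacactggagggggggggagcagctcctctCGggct
Peg3, minus strand, chr7:6730432-6730577: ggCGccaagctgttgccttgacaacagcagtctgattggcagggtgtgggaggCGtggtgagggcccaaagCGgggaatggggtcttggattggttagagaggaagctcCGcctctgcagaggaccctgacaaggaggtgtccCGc
Grb10, minus strand, chr11:12037421-12037670: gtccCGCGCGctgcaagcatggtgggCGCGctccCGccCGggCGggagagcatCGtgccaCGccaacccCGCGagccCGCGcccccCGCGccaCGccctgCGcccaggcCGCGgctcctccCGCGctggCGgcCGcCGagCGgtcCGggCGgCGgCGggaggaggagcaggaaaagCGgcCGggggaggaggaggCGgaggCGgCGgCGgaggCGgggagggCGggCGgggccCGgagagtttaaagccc
Mest, plus strand, chr6:30737800-30738049: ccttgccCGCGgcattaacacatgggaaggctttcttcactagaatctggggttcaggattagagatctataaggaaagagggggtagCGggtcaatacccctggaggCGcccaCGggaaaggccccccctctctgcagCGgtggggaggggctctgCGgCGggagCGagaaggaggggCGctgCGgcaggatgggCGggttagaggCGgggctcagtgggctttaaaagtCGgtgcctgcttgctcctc

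In lean WT-labelled fat the members spanned a wide range of levels. Sgce had the highest mean at 74.0 ± 2.83 FPKM (SD, n = 4), followed by Mest (59.4 ± 21.8), Peg3 (55.0 ± 16.6) and Plagl1 (45.8 ± 5.48), and the ranges of these last 3 overlapped. The range of Sgce (71.63 to 78.05 FPKM) also overlapped those of Mest (36.72 to 88.91) and Peg3 (39.56 to 74.07). Grb10 (27.5 ± 3.17), Peg10 (24.8 ± 11.2) and Cdkn1c (12.2 ± 1.71) came next. Igf2 stood at 3.13 ± 1.62 FPKM and Dlk1 at 0.0550 ± 0.0173 FPKM. On HFD the order changed, with Mest highest at 263 ± 239 FPKM in WT-labelled fat.

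**Figure D1:**
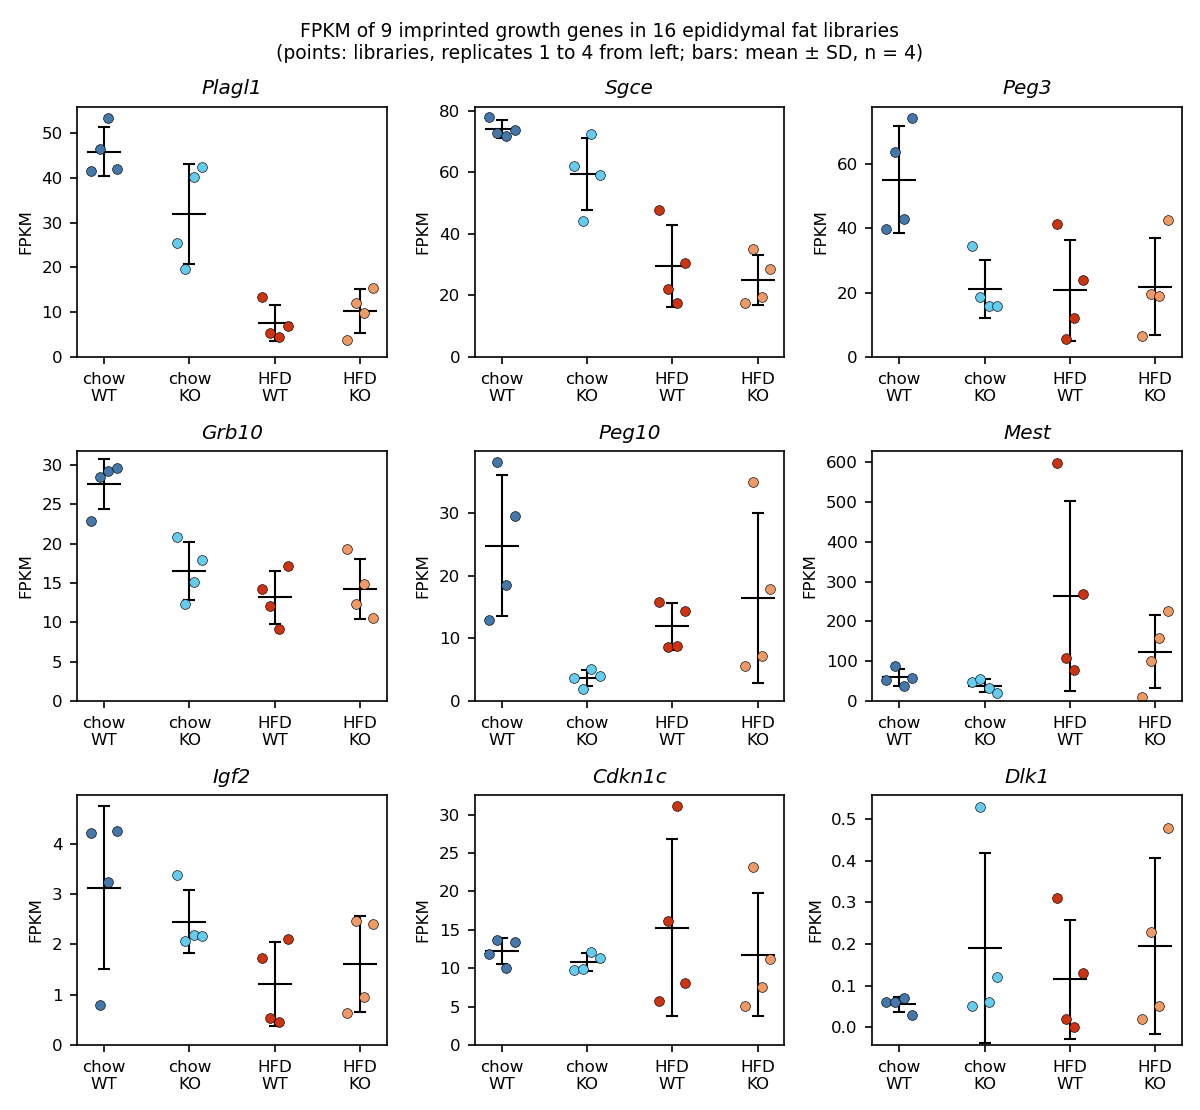
FPKM of the 9 members with a row in each of the 16 libraries, by group; points are libraries, horizontal bars the mean and error bars the SD (n = 4), each panel on its own linear axis. Plagl1 and Sgce are lower in every HFD library than in every chow library of the same genotype label, Peg10 is lowest in chow KO (1.99 to 5.10 FPKM), and Mest reaches 599 FPKM in 1 HFD WT library.

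Plagl1, Sgce, Grb10 and Peg3 were lower on HFD in WT-labelled mice. Of 8 members tested, 4 fell and 0 rose, where 17.2% of all tested genes fell and 24.6% rose. The share of all genes that fell depended on the scaling, at 20.8% with median-of-ratios scaling, 14.3% when every library was set to one sum and 23.3% with quantile normalization. Groups did not overlap for 3 members, Plagl1, Sgce and Grb10, all lower; 20.7% of all genes were lower without overlap. In KO-labelled mice 2 of 8 fell and 1 rose, where 15.3% of all genes fell and 23.5% rose. All 3 were without overlap, as were 11.3% of all genes for lower values and 17.5% for higher ones. Without the 3 libraries with epididymal genes 5 fell in WT-labelled and 2 in KO-labelled mice, and 0 rose in either, where 21.7% and 20.4% of all genes fell. Adipocyte markers fell as well, 8 of 10 with each genotype label, and macrophage markers rose, 8 of 8, from at most 300.2 FPKM in sum on chow to 887 FPKM or more on HFD. In whole tissue, fewer cells of a type and less RNA per cell cannot be told apart.

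Plagl1, also called Zac1, is a zinc finger transcription factor expressed from the paternal copy, known to regulate other imprinted genes. It stood at 41.39, 46.49, 53.27 and 42.03 FPKM in chow WT and at 13.32, 5.35, 4.39 and 6.90 FPKM in HFD WT. Its lowest chow value was thus above its highest HFD value. The difference on the log2(FPKM + 1) scale was -2.56 (95% interval -3.34 to -1.79, SE 0.36, limma adjusted p = 0.000138). In the KO-labelled mice it stood at 25.37, 19.72, 40.15 and 42.49 FPKM on chow and 3.82, 12.02, 9.74 and 15.48 FPKM on HFD. These groups did not overlap either (difference -1.61, SE 0.36, adjusted p = 0.00342). The 2 diet differences were not shown to differ from each other (interaction 0.95, 95% interval -0.15 to 2.04, adjusted p = 0.584; 0.23, adjusted p = 0.849, without the 3 libraries with epididymal genes).

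Sgce encodes epsilon-sarcoglycan, a membrane protein of the dystrophin-associated complex, and is expressed from the paternal copy. It stood at 78.05, 72.61, 71.63 and 73.68 FPKM in chow WT, the tightest of the members, and at 47.77, 22.01, 17.51 and 30.54 FPKM in HFD WT. In KO-labelled mice it went from 62.12, 44.16, 72.47 and 59.20 FPKM on chow to 17.38, 34.95, 19.45 and 28.55 FPKM on HFD. The groups did not overlap in either genotype. The difference was -1.40 in WT-labelled mice (SE 0.27, adjusted p = 0.00101) and -1.25 in KO-labelled mice (SE 0.27, adjusted p = 0.00261). Of the 11 tested genes of the sarcoglycan and dystrophin complex other than Sgce, 4 fell in WT-labelled and 6 in KO-labelled mice, and 0 rose (median -0.83 and -0.93, against 0.06 and 0.08 over all genes). Of all genes 17.2% and 15.3% fell, and 24.6% and 23.5% rose. Utrn, the dystrophin relative utrophin, fell by 1.02 and 1.17, and Sspn, sarcospan, fell by 0.93 and 0.90.

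Peg3, a paternally expressed zinc finger gene, was lower on HFD in WT-labelled mice with a weaker margin. It stood at 39.56, 63.68, 42.81 and 74.07 FPKM in chow WT and at 41.33, 5.65, 12 and 23.95 FPKM in HFD WT, where replicate 1 overlapped the chow range (difference -1.64, SE 0.54, adjusted p = 0.0248). This call ended without chow WT replicate 2 (adjusted p = 0.0602) or 4 (0.0680), and without HFD WT replicate 2 (0.0898) or 3 (0.0677). In KO-labelled mice it stood at 34.46, 18.63, 15.71 and 15.94 FPKM on chow and 6.45, 19.43, 18.84 and 42.47 FPKM on HFD. These groups overlapped, with a difference of -0.15 (SE 0.54, adjusted p = 0.853) whose sign turned positive without chow KO replicate 1 or HFD KO replicate 1. It was -0.83 (adjusted p = 0.315) without the 3 libraries with epididymal genes.

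Grb10 encodes an adaptor protein that binds the insulin and IGF1 receptors and restrains their signalling, and in most tissues it is expressed from the maternal copy. It stood at 22.82, 28.40, 29.17 and 29.66 FPKM in chow WT and at 14.21, 12.11, 9.21 and 17.21 FPKM in HFD WT. All 4 chow WT libraries lay above all 12 others, of which the highest was 20.84 FPKM in chow KO replicate 1. Since chow WT stood apart from all other groups here, a property of these 4 mice and an effect of diet cannot be told apart. The difference was -1.03 in WT-labelled mice (SE 0.20, adjusted p = 0.00128). In KO-labelled mice it was 20.84, 12.33, 15.12 and 17.91 FPKM on chow and 19.35, 12.34, 14.82 and 10.59 FPKM on HFD, which overlapped (difference -0.21, 95% interval -0.65 to 0.23, adjusted p = 0.441; -0.068 without the 3 libraries with epididymal genes). The difference between these diet differences was 0.82 (SE 0.29, unadjusted p = 0.0124, limma adjusted p = 0.310), which did not pass the threshold.

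Peg10 is a paternally expressed gene derived from a retrotransposon and needed in the placenta. In chow WT it stood at 12.98, 38.12, 18.48 and 29.52 FPKM, and in chow KO at 3.69, 1.99, 5.10 and 4.03 FPKM. The groups did not overlap, with every chow KO library under every one of the 12 others, the lowest of which was 5.61 FPKM in HFD KO replicate 1. It was the only tested member to differ between the genotype labels on chow: 1 of 8 was lower, where 0.979% of all genes were lower and 0.426% higher. The share of the 178 called genes that were higher was 30.3%, and 18.5% with median-of-ratios scaling. The log2 difference was -2.39 (SE 0.46, adjusted p = 0.0187). This call ended without chow WT replicate 2 (adjusted p = 0.0838) or 4 (0.0720), and without chow KO replicate 1 (0.0532) or 2 (0.0570), with differences from -2.65 to -2.15 over the fits that left out 1 library. Without the 3 libraries with epididymal genes it was -2.19 (adjusted p = 0.00456). The summed level of 5 smooth muscle markers also differed between these groups without overlap, at 117 to 357 FPKM in chow WT and 35.2 to 68.6 FPKM in chow KO. Acta2 made up most of it and was the 1 marker of 5 called, and the mean log2 level of the 5 overlapped (2.79 to 4.36 and 2.11 to 3.26). The sum of 6 skeletal muscle markers, mostly Acta1, was 106 to 264 FPKM in chow WT and 3.04 to 29.0 FPKM in chow KO. The part of either in the result was not tested.

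The values of Peg10 on HFD lay between those of the chow groups or near chow WT. In HFD WT it stood at 15.84, 8.69, 8.79 and 14.31 FPKM, a difference of -0.93 that did not pass the threshold (SE 0.46, adjusted p = 0.118). It passed without the 3 libraries with epididymal genes (adjusted p = 0.0180) and with the WT groups alone (adjusted p = 0.0449). In HFD KO it stood at 5.61, 35.02, 7.14 and 17.91 FPKM, all above the chow KO libraries, a rise of 1.60 (SE 0.46, adjusted p = 0.0137). The high values were those of replicates 2 and 4, which both hold epididymal genes. Chow KO replicate 2, the library with most epididymal RNA, had the lowest Peg10 of all libraries, 1.99 FPKM. Replicates 2 and 4 also had the highest mean log2 adipocyte marker levels of HFD KO, 8.63 and 9.17, against 6.81 and 8.34 in replicates 1 and 3. The part of either in these values was not tested. Without the 3 libraries with such genes the difference was 0.49 (adjusted p = 0.300), so the call ended. HFD KO then held only replicates 1 and 3, at 5.61 and 7.14 FPKM, still above the highest chow KO value of 5.10 FPKM. In HFD KO replicate 2 the smooth muscle markers summed to 1344 FPKM, against 91.3 to 184 FPKM in the other 3 HFD KO libraries. The interaction was 2.54 (95% interval 1.14 to 3.93, adjusted p = 0.156), and 1.42 (adjusted p = 0.200) without the 3 libraries, neither past the threshold. Sgce, which starts beside Peg10, differed by -0.33 between genotypes on chow (adjusted p = 0.609; -0.20 without the 3 libraries), with overlapping groups.

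**Figure D2:**
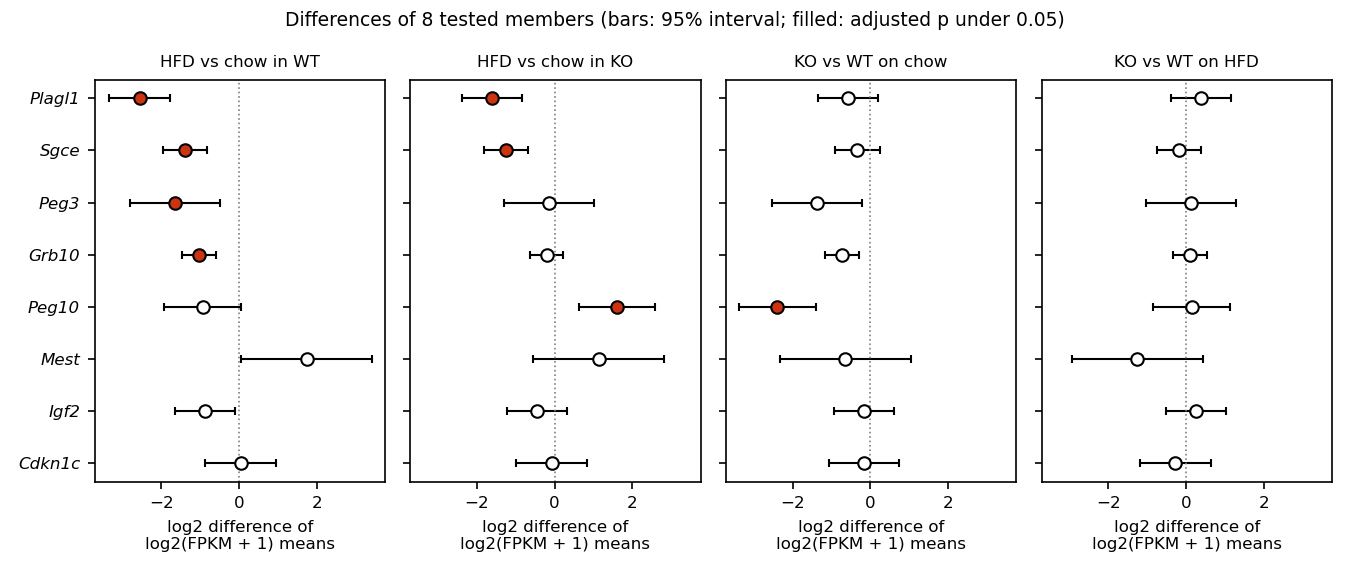
Log2 differences of the 8 tested members in the 4 comparisons of 2 groups, from 1 limma fit on log2(FPKM + 1); bars are 95% intervals and filled points have an adjusted p under 0.05. Plagl1 and Sgce are below 0 in both diet comparisons, Peg10 is filled at -2.39 for genotype on chow and at 1.60 for diet in KO, and no point is filled between genotypes on HFD.

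Mest encodes a hydrolase-like enzyme of the endoplasmic reticulum, is expressed from the paternal copy, and is known for its rise in enlarging adipocytes. It was the most variable member. In chow WT it stood at 53.44, 88.91, 36.72 and 58.65 FPKM, and in HFD WT at 598.76, 107.88, 77.10 and 268.47 FPKM. In chow KO it stood at 48.94, 55.40, 31.53 and 19.33 FPKM, and in HFD KO at 10.82, 99.33, 157.49 and 226.99 FPKM. Of the 8 HFD libraries 6 were above all 8 chow libraries, while HFD KO replicate 1 was the lowest of all 16. The diet difference was 1.74 in WT-labelled mice (SE 0.79, adjusted p = 0.0890) and 1.13 in KO-labelled mice (SE 0.79, adjusted p = 0.271), neither past the threshold. Without HFD KO replicate 1, which widened the shared spread, both passed, at 1.74 (adjusted p = 0.0191) and 2.06 (adjusted p = 0.0188). The difference in KO-labelled mice was 0.43 (adjusted p = 0.732) without the 3 libraries with epididymal genes.

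Other genes known to move with the enlargement of fat were compared beside Mest. Of 11 tested, 0 rose and 2 fell in WT-labelled mice (median -0.02), and 3 rose and 2 fell in KO-labelled mice (median -0.19). Of all genes 24.6% rose and 17.2% fell in WT-labelled mice, and 23.5% and 15.3% in KO-labelled mice. Sfrp5, a secreted Wnt antagonist, rose in KO-labelled mice by 2.84 (adjusted p = 0.00325), and Bmp3, a BMP antagonist-like ligand, by 1.40 (adjusted p = 0.0176). In HFD KO Sfrp5 stood at 21.15, 191.20, 84.79 and 301.21 FPKM, and Bmp3 at 5.67, 21.73, 9.12 and 16.19 FPKM. Both were highest in replicates 2 and 4, which hold epididymal genes. In chow KO replicate 2, with most such RNA, they were 17.32 and 1.89 FPKM. The part of that RNA was not tested. Bmp3 reached 8.49 FPKM in chow KO replicate 3, so its groups overlapped. Sfrp5 was also lower in chow KO than in chow WT, at 14.1 ± 5.25 against 106 ± 13.1 FPKM (difference -2.90, adjusted p = 0.0342). In HFD WT replicate 1, where Mest was highest, Sfrp5 was 403 FPKM, and in HFD KO replicate 1, where Mest was lowest, it was 21.2 FPKM. Caveolin genes were lower on HFD in KO-labelled mice, Cav1 by -1.16 (adjusted p = 0.0343) and Cav2 by -1.72 (adjusted p = 0.00208).

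Igf2 encodes the fetal growth factor IGF-II, expressed from the paternal copy. It was low throughout: 4.21, 0.80, 3.24 and 4.26 FPKM in chow WT, and 1.72, 0.53, 0.46 and 2.11 FPKM in HFD WT. In KO-labelled mice it was 3.38, 2.06, 2.19 and 2.16 FPKM on chow and 0.63, 2.47, 0.95 and 2.40 FPKM on HFD. Groups overlapped with either label, and neither diet difference passed the threshold (-0.87, adjusted p = 0.0668, and -0.46, adjusted p = 0.327; the latter was -0.99, adjusted p = 0.0812, without the 3 libraries with epididymal genes). In WT-labelled mice the difference passed without chow WT replicate 2, at -1.23 (adjusted p = 0.00937), and without HFD WT replicate 4 (adjusted p = 0.0417). It also passed with median-of-ratios scaling (adjusted p = 0.0471) and quantile normalization (0.0373).

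Of 18 tested genes of the IGF axis, 2 rose and 6 fell in WT-labelled mice and 3 rose and 4 fell in KO-labelled mice (medians -0.21 and -0.24). Of all genes 24.6% rose and 17.2% fell in WT-labelled mice, and 23.5% and 15.3% in KO-labelled mice. Igf2r, itself an imprinted gene, encodes the receptor that takes IGF-II to lysosomes, and it rose in KO-labelled mice by 1.67 (adjusted p = 0.000897) from 18.1 ± 1.47 to 64.2 ± 24.3 FPKM; in WT-labelled mice the rise was also 1.67 (adjusted p = 0.000633). The insulin receptor gene Insr fell in both (-1.33 and -1.18), and so did Irs1, the insulin receptor substrate (-1.63 and -1.74). Irs2, a second substrate, fell by 1.87 and 0.77. Igfbp4, an IGF-binding protein, fell by 1.62 in WT-labelled mice, and its difference in KO-labelled mice was -0.52 (adjusted p = 0.0811).

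Dlk1 encodes Pref-1, a membrane protein of preadipocytes that holds back their differentiation, and it is expressed from the paternal copy. It was near 0 in all groups, between 0 and 0.53 FPKM over the 16 libraries. The highest values were 0.53 FPKM (chow KO, replicate 2) and 0.48 FPKM (HFD KO, replicate 4), in the libraries with most epididymal RNA; the part of that RNA was not tested. It was kept out of the tests. Of 16 tested genes of the Notch pathway, to which Dlk1 is related, 3 rose in WT-labelled and 5 in KO-labelled mice and 0 fell (medians 0.19 and 0.26), against 24.6% and 23.5% of all genes that rose. Notch3, a receptor of mural cells (1.21 and 1.29), and Adam17, a protease that sheds membrane proteins (1.49 and 1.38), rose in both.

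Cdkn1c encodes p57, an inhibitor of cyclin-dependent kinases expressed from the maternal copy. It lay within 9.76 to 13.70 FPKM in all 8 chow libraries. On HFD it spread to 5.75, 16.08, 31.17 and 8.02 FPKM in WT-labelled mice and 5.14, 23.15, 7.60 and 11.22 FPKM in KO-labelled mice, so that HFD libraries lay both above and below the chow range. The mean differences were 0.04 (adjusted p = 0.948) and -0.07 (adjusted p = 0.910), with 95% intervals of -0.87 to 0.96 and -0.99 to 0.84. In KO-labelled mice it was -0.73 (adjusted p = 0.224) without the 3 libraries with epididymal genes. The sign in WT-labelled mice turned with median-of-ratios and quantile scaling. Its relative Cdkn1a, encoding p21, rose by 2.14 (adjusted p = 4.92e-06) and 2.77 (adjusted p = 1.20e-06). Of 7 other inhibitor genes tested, 2 rose and 1 fell in WT-labelled mice, and 3 rose and 1 fell in KO-labelled mice. Cdkn2a, among the 3 that rose in KO-labelled mice, was at most 0.43 FPKM on chow and passed the filter through HFD libraries alone. Of all genes 24.6% rose and 17.2% fell in WT-labelled mice, and 23.5% and 15.3% in KO-labelled mice. Between genotypes on chow Cdkn1a was lower (-1.14, adjusted p = 0.00896) and Cdkn2c, encoding p18, higher (1.31, adjusted p = 0.0483) in KO-labelled mice. Cdkn1b, encoding p27, was 9.76 ± 0.926 FPKM in HFD WT and 16.8 ± 2.09 FPKM in HFD KO, a difference of 0.72 (adjusted p = 0.0370), with an interaction of 0.83 (adjusted p = 0.0378).

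Between genotype labels on HFD, 0 of 8 members differed in the limma fit, where 0.0237% of all genes were higher and 0.00789% lower; 0 of the 8 also had an unadjusted p under 0.05, against 11.8% of all genes. Mest had the largest difference, -1.25 (95% interval -2.93 to 0.43, adjusted p = 0.530; -2.15, adjusted p = 0.309, without the 3 libraries with epididymal genes), and the groups of all 8 overlapped. For Plagl1 the difference was 0.38 (adjusted p = 0.700), and -0.13 without the 3 libraries. The interaction was past the threshold for 0 of 8 members, where 0.253% of all genes were higher and 0.0395% lower; Peg10 and Grb10 had an unadjusted p under 0.05, against 10.1% of all genes. On chow, Peg3 (difference -1.36, adjusted p = 0.267) and Grb10 (-0.72, adjusted p = 0.108) were lower in KO-labelled libraries without overlap of the groups, as were 6.25% of all genes, but short of the threshold.

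Genes that lie in the same imprinted domains were read from a separate list. Of 17 tested, 4 rose and 5 fell in WT-labelled mice and 4 rose and 3 fell in KO-labelled mice, with medians of 0.14 and 0.07. Of all genes 24.6% rose and 17.2% fell in WT-labelled mice, and 23.5% and 15.3% in KO-labelled mice. Near Sgce and Peg10 on chromosome 6, Tfpi2, a protease inhibitor, rose by 1.95 and 1.38, and Asb4, a ubiquitin ligase subunit, rose by 0.99 and 1.04. Asb4 was low throughout, at 0.05 to 0.41 FPKM on chow and 0.69 to 2.47 FPKM on HFD. It passed the filter through HFD libraries alone, and is counted among the 4 that rose with each label. In the same domain the paraoxonase gene Pon3 fell by 1.36 (adjusted p = 0.000936) and 0.84 (adjusted p = 0.0181), while Pon2 rose by 0.45 (adjusted p = 0.0242) and 0.63 (adjusted p = 0.00447). Near Cdkn1c on chromosome 7, Slc22a18, a transporter, fell by 0.82 (adjusted p = 0.00477) and 0.63 (adjusted p = 0.0228). Of 21 other imprinted genes tested, 4 rose and 5 fell in WT-labelled mice and 1 rose and 6 fell in KO-labelled mice (medians -0.37 and -0.24), beside the same shares of all genes. Nnat, a small membrane protein of the endoplasmic reticulum, fell in KO-labelled mice by 2.52 (adjusted p = 0.00855), from 1069 ± 337 to 268 ± 243 FPKM (SD, n = 4), and in WT-labelled mice by 3.17 (adjusted p = 0.00186). Blcap, whose intron holds Nnat, fell in both (-1.18 and -1.22).

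**Figure D3:**
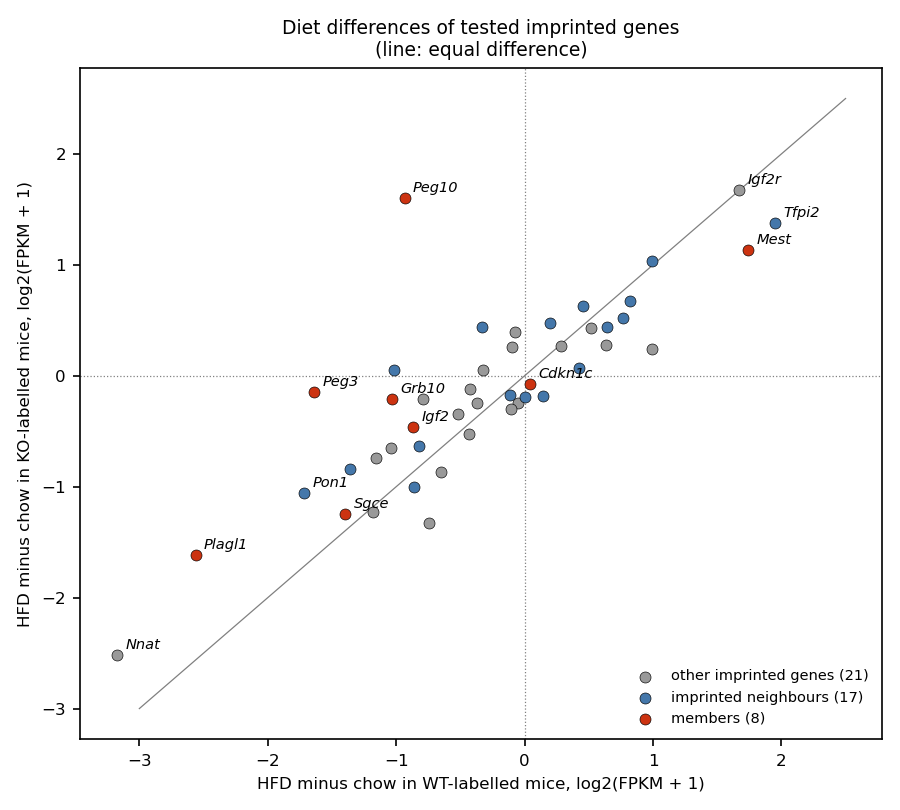
Diet difference in WT-labelled mice (horizontal axis) against that in KO-labelled mice (vertical axis), in log2(FPKM + 1), for 8 members, 17 genes of their domains and 21 other imprinted genes. Nnat and Plagl1 lie lowest on both axes (-3.17 and -2.56 in WT, -2.52 and -1.61 in KO), and Peg10 is at -0.93 in WT and 1.60 in KO.

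Members also differed between mice of the same group, and some did so together. Deviations from the 4 group means were correlated over 16 libraries for all 28 pairs of tested members, with permutations of the libraries within groups (100000 resamples, 2-sided) and Benjamini-Hochberg adjustment over the pairs. Of the 28 pairs 3 passed, all positive. Peg10 and Sgce, the head-to-head pair, had r = 0.72 (permutation p = 0.00115, adjusted 0.0210; rho = 0.71, adjusted 0.0539), with r = 0.44 within chow and 0.82 within HFD (8 libraries each). Peg3 and Mest had r = 0.85 (permutation p = 0.00186, adjusted 0.0210; rho = 0.83, adjusted 0.0372), with 0.59 within chow and 0.89 within HFD. Plagl1 and Sgce had r = 0.82 (permutation p = 0.00225, adjusted 0.0210; rho = 0.75, adjusted 0.0539), with 0.67 within chow and 0.86 within HFD. Without the 2 libraries farthest from the median, r was 0.61, 0.81 and 0.73, with adjusted permutation p of 0.150, 0.125 and 0.172, which did not pass. Without the 3 libraries with epididymal genes r was 0.47, 0.83 and 0.75, and 0 of 28 pairs passed.

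The same was done, after the values had been seen, for the members against the mean log2 level of 10 adipocyte and 8 macrophage markers. Of 16 relations 7 passed. Against the adipocyte markers, deviations had r = 0.90 for Plagl1 (permutation p = 0.00093, adjusted 0.0120; rho = 0.79, adjusted 0.0198) and 0.85 for Sgce (permutation p = 0.00225, adjusted 0.0120; rho = 0.86, adjusted 0.0198). Peg3 had r = 0.85 (permutation p = 0.00533, adjusted 0.0185; rho = 0.76, adjusted 0.0395), Mest 0.84 (permutation p = 0.0139, adjusted 0.0318; rho = 0.63, adjusted 0.0902) and Igf2 0.65 (permutation p = 0.00582, adjusted 0.0185; rho = 0.67, adjusted 0.0395). Peg10 missed the threshold (r = 0.63, permutation p = 0.0274, adjusted 0.0549; rho = 0.59, adjusted 0.0395), and Grb10 and Cdkn1c had r = 0.02 (permutation p = 0.961) and -0.15 (permutation p = 0.703). Within HFD r was 0.97 for Plagl1, 0.86 for Sgce, 0.94 for Peg3, 0.97 for Mest and 0.88 for Igf2, and within chow 0.60, 0.80, 0.22, -0.41 and 0.22; these differences were not tested. Against the macrophage markers Plagl1 had r = -0.80 (permutation p = 0.00214, adjusted 0.0120; rho = -0.78, adjusted 0.0248) and Sgce -0.82 (permutation p = 0.00693, adjusted 0.0185; rho = -0.81, adjusted 0.0230), with -0.83 and -0.90 within chow and -0.80 and -0.81 within HFD.

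For these 7 relations r without the 2 farthest libraries was 0.79, 0.78, 0.77, 0.64 and 0.72 against the adipocyte markers, in the order given, and -0.82 and -0.65 against the macrophage markers. Only the macrophage relation of Plagl1 was still past the threshold among these 7 (adjusted permutation p = 0.0359). Without the 3 libraries with epididymal genes r was 0.84, 0.83, 0.83, 0.91 and 0.53 against the adipocyte markers and -0.75 and -0.97 against the macrophage markers, and with these fewer libraries 0 of 16 passed (adjusted permutation p from 0.0626 to 0.118 for the 7). The part of cell composition in the diet differences of Plagl1, Sgce and Peg3 was not tested.

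**Figure D4:**
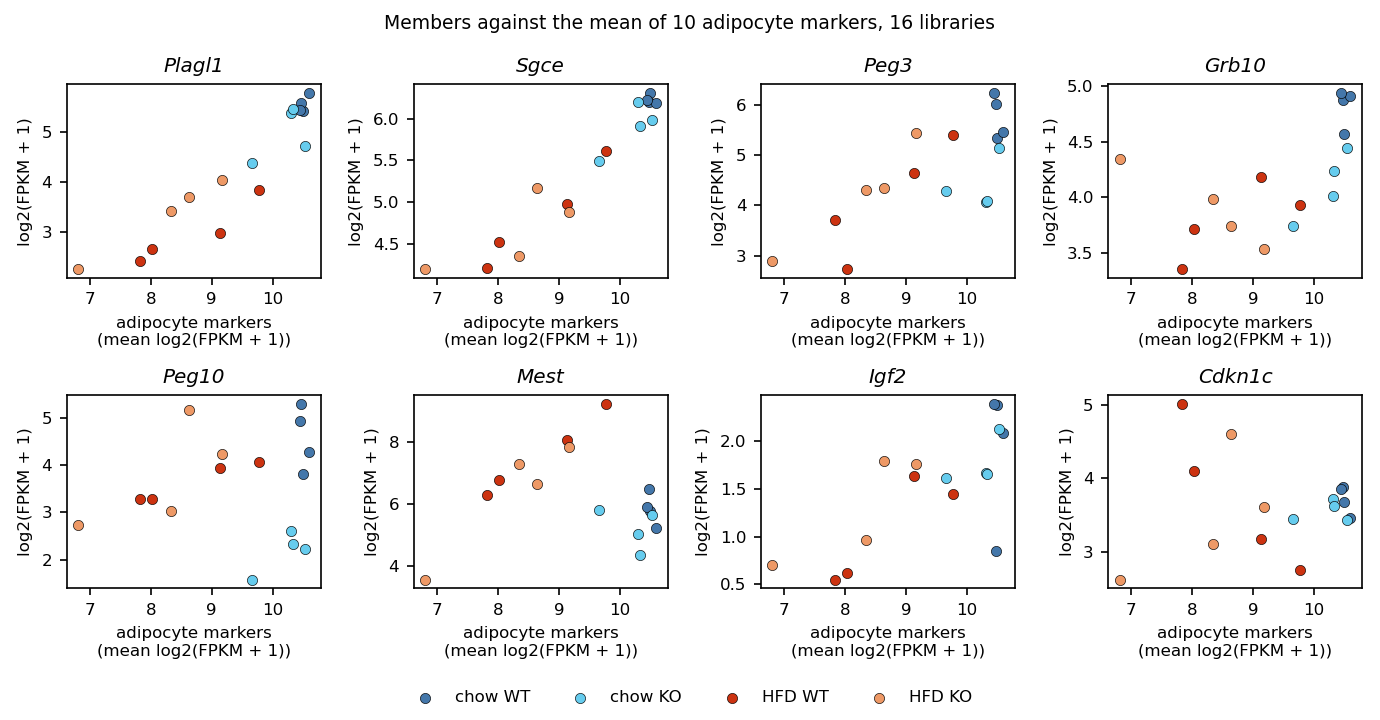
Level of each tested member (vertical axis, log2(FPKM + 1)) against the mean log2(FPKM + 1) of 10 adipocyte markers (horizontal axis) in 16 libraries, coloured by group. Plagl1 and Sgce rise along the axis over all groups, Mest does so within HFD but is lower in chow at higher marker levels, and Cdkn1c spreads widely at low marker levels.

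The genes most like each member were taken from all 12667 tested genes by the r of deviations over 16 libraries; being the highest of so many, these values are descriptions only. Plagl1 was most like Rbp4, the retinol carrier made by adipocytes (0.97), Adipoq, adiponectin (0.96), and Gstk1 (0.96). Mest was most like Insig1, a regulator of sterol synthesis (0.95), Agfg2 (0.95) and Prelp, a matrix proteoglycan (0.95). Sgce went with St3gal3 (0.97), Dennd5b (0.95) and Amotl1 (0.94), and Peg3 with Cdc42ep1 (0.95), G0s2, an inhibitor of the lipase ATGL (0.94), and Mycbp2 (0.94). Peg10 went with Cyp2b10, a cytochrome P450 (0.97), Zfp641 (0.86) and Lims2 (0.85). Group means were 0.29 to 2.34 FPKM for Cyp2b10 and 0.5025 to 2.0975 FPKM for Zfp641, partly under 1 FPKM, where values were not resolved. For Igf2 the closest were Elmod3 (0.85), Phlpp2 (0.84) and Dixdc1 (0.83), for Cdkn1c Mamdc2 (0.86), S100a1 (0.85) and Phospho1 (0.81), and for Grb10 Usp16 (0.85), Sypl (0.85) and Pmpca (0.83).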

How the data were processed

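RNA was extracted with TRIzol and libraries were prepared with an MGIEasy kit, per the labels' protocols. The authors deposited FPKM values per gene, rounded to 2 decimals; the processing notes name STAR 2.7 and the builds GRCm38.p6 and mm10, and the tool that made the FPKM values, its annotation and the strand are not given there. Entries for circular RNAs (14408) and 1 blank row were left out. No column was unmapped. Log2(FPKM + 1) values were fitted with limma 3.58.1 in R 4.3.3 (4 group means, 16 libraries, empirical Bayes with a variance trend), with Benjamini-Hochberg adjustment over 12667 genes and a threshold of 0.05; fold changes are on the log2(FPKM + 1) scale and understate those of low genes. FPKM carries no counts, so depth is unknown and precision comes from the spread of 4 mice. The fit was tested on simulated data. The members and lists were chosen with earlier results of these data known. All 10 members are described. From each other list, at most 4 genes per comparison with the smallest p among those called are named. The 3 genes most like each member are named too, and Sfrp5 and Bmp3, named genes, are also given per library. Alternatives were other scalings, pseudocounts of 0.1 and 0.5, other filters, a replicate block, no variance trend, 2 groups alone, a threshold of 0.1, and leaving out libraries. The values of 1 listed gene are not reported here.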

Additional observations from a re-analysis of the deposited data

Results flagged for a closer look

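In each group of 4 libraries the FPKM of the 9 members was searched for a highest or lowest library whose gap to its neighbour, divided by the range of the group, was above 0.829; chance gives about 1 in 20 groups. Of 36 groups 3 had such a library, all in chow KO. Igf2 was 3.38 FPKM in chow KO replicate 1, while the other 3 lay between 2.06 and 2.19 FPKM. Peg3 was 34.46 FPKM in the same library, against 15.71 to 18.63 FPKM. Dlk1 was 0.53 FPKM in chow KO replicate 2, the library with most epididymal RNA, against 0.05 to 0.12 FPKM.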

How the results depend on the processing

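The diet calls of Plagl1, Sgce and Grb10 named in the report held under all alternatives run. Over fits without 1 library, members called were 3 to 5 for diet in WT-labelled mice, 3 to 4 in KO-labelled mice, 0 to 1 between genotypes on chow, and 0 to 0 on HFD and for the interaction. With only the 2 groups compared, 2 members were called between genotypes on chow, Peg10 and Peg3; the cause was not tested. Of the 28 pairs of members, 0 passed without the 3 libraries with epididymal genes and 0 without the 2 farthest libraries; of the 16 relations with marker lists, chosen after seeing the data, 0 and 2 passed. Fewer libraries enter these.

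Signs turned only for differences that passed no threshold; the cause was not tested. With median-of-ratios scaling Cdkn1c for diet in WT was -0.015, and between genotypes on HFD Peg3 was -0.011 and Grb10 -0.033. With quantile normalization Cdkn1c was -0.094 and Grb10 -0.0024. Without the 3 libraries with epididymal genes, the HFD genotype difference was -0.77 for Peg10, -0.52 for Peg3, -0.23 for Igf2 and -0.13 for Plagl1, and the interaction -0.12 for Igf2 and -0.36 for Sgce. Over fits without 1 library Cdkn1c ranged from -0.37 to 0.38 (diet, WT), -0.44 to 0.22 (diet, KO), -0.65 to 0.14 (genotype, HFD) and -0.48 to 0.30 (interaction). Between genotypes on HFD Peg10 ranged from -0.31 to 0.50, Peg3 from -0.33 to 0.58, Grb10 from -0.042 to 0.24 and Sgce from -0.39 to 0.081. Peg3 for diet in KO ranged from -0.54 to 0.30, and the interaction from -0.054 to 0.41 for Sgce and -1.11 to 0.32 for Mest.

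Same-numbered libraries of different groups had r of deviations from -0.63 to 0.37, with 8 of 24 pairs over 0.1. Differently numbered pairs had r from -0.51 to 0.65, with 21 of 72 over 0.1. A library's own number was the best match in 11 of 48. Pairing of mice by number was thus not seen, but these values cannot exclude a weak one. With the replicate block 4, 3, 1, 0 and 0 members were called in the 5 comparisons, the same counts as without, and 115 genes in all between genotypes on chow and 18 for the interaction, against 178 and 37. Called between genotypes on HFD were 9 genes with median-of-ratios scaling, 8 with quantile normalization and 19 without the 3 libraries, against 4. Relative to the main values, the median of all genes shifted by -0.10 and -0.15 (diet, WT and KO) and -0.11 (genotype, HFD) with quantile normalization, and by -0.13 (genotype, HFD) with median-of-ratios scaling. Depth is unknown from FPKM, and values under 1 FPKM, as for Dlk1, were not resolved.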

Other observations

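Regulators of imprints and relatives of Plagl1 were read from a further list, of which 10 of 14 were tested. With HFD, 5 rose and 1 fell in WT-labelled mice and 4 rose and 1 fell in KO-labelled mice (medians 0.62 and 0.37, against 0.06 and 0.08 over all genes). Of all genes 24.6% rose and 17.2% fell in WT-labelled mice, and 23.5% and 15.3% in KO-labelled mice. Dnmt1, which copies DNA methylation at replication, rose by 1.47 (limma adjusted p = 0.00116) and 1.54 (adjusted p = 0.00118). Dnmt3a, which sets new methylation, rose by 1.77 and 1.0, and Dppa3, known for guarding imprints in the early embryo, by 1.21 and 1.07. Dppa3 was low throughout, at 0 to 0.11 FPKM on chow and 0.62 to 2 FPKM on HFD. It passed the filter through HFD libraries alone, and is counted among the 5 and 4 that rose. Plagl2, the relative of Plagl1, rose by 1.03 (adjusted p = 0.00304) and 1.06 (adjusted p = 0.00303). The 8 cell cycle genes of the marker list all rose in both, with Mki67 up by 3.0 and 2.65. Some were very low on chow and passed the filter through HFD libraries alone, such as Cdk1 (at most 0.77 FPKM on chow). The part of dividing cells in the rise of Dnmt1 was not tested. Between genotype labels 0 of the 10 passed in the limma fit on either diet. On HFD 3 had an unadjusted p under 0.05, against 11.8% of all genes. For chow the share of all genes with such a p is not given, so no count is read there. Whether this list differs from all genes was not tested.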
